A study of Arabidopsis thaliana with 18 samples.

Results

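Root RNA of sog1-1 rab8d-2 double mutants was compared with that of the rab8d-2 single mutant, gene by gene, in 3 libraries of each genotype. The comparison covers all 25537 genes of the deposited table, of which 19981 had enough counts to be tested. SOG1 (AT1G25580) lies on chromosome 1, and a plant chosen for the sog1-1 allele also carries whatever chromosome 1 sequence is linked to it. For that reason genes are counted apart for the 14696 tested outside chromosome 1 and the 5285 with identifiers that start with AT1G. The latter cover both arms of the chromosome. Gene lists are counted over all chromosomes, and for several of them the counts outside chromosome 1 are added.

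The 6 libraries belong to a set of 18 poly(A) RNA libraries from Arabidopsis thaliana, with 3 labelled biological replicates for each of 6 genotypes. All seedlings were 4 days old, grew untreated on medium with sucrose in days of 16 h light and 8 h dark, and only their roots were taken. The other genotypes are wild type (WT, accession Col) and the doubles of rab8d-2 with atm-2, with nac044-1 or with nac085-1, and they are used here only beside the main comparison. Except in WT, every genotype therefore carries rab8d-2, which puts any difference between sog1-1 rab8d-2 and rab8d-2 on a background with the rab8d-2 mutation. No sog1-1 single mutant was analysed here, and each mutation is represented by 1 allele. For the rab8d-2 libraries the labels disagree, since the genotype entry says WT and the title says rab8d-2, and titles were taken as right.

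RAB8D encodes the elongation factor EF-Tu of the plastid, which brings aminoacyl-tRNA to plastid ribosomes. SOG1 is a plant NAC transcription factor that the kinase ATM phosphorylates when DNA strands break, and it then switches on genes for DNA repair, for inhibitors of cyclin-dependent kinases and for the related factors NAC044 and NAC085. It is often compared with p53 of animals, because root meristem cells that lack it go on dividing after DNA damage. The study's set of double mutants asks which transcripts of plastid-defective roots depend on this pathway.

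Levels are given as normalised counts (CPM, counts relative to library size after scaling between libraries), always in the order of replicates 1 to 3. They are not divided by transcript length, so levels are compared between genotypes and never between genes. Differences are log2 fold changes of sog1-1 rab8d-2 over rab8d-2, and ± is the standard error with n = 3 libraries per genotype. A gene is called higher or lower at an adjusted p under 0.05 (edgeR quasi-likelihood test with Benjamini-Hochberg adjustment over all 19981 genes). The 6 libraries hold 20213260 to 20378946 estimated counts each, and the biological coefficient of variation across all 18 libraries was 2.38%. With so little spread the test called 54.6% of all tested genes, 28.7% higher and 26% lower, many of them by small amounts. Every count of called genes below is to be read against those shares.

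The mutated genes were looked at first. SOG1 RNA was at 29.7, 27.9 and 30.6 CPM in sog1-1 rab8d-2 against 24.9, 23.6 and 26.5 in rab8d-2 (0.23 ± 0.05, adjusted p = 0.000284) and 29.3, 30.3 and 31.5 in WT. The sog1-1 allele is known as a change of the protein sequence, so RNA level does not check the label. RAB8D (AT4G20360, RABE1b in the reference annotation) was at 14.8, 10.8 and 14 CPM in sog1-1 rab8d-2 and at 11.6, 11.7 and 10.9 in rab8d-2. These ranges overlap, and both lie far under the 93.1, 89.7 and 87.9 CPM of WT. The difference of 0.22 ± 0.08 between the mutants had an adjusted p of 0.0284, which came to 0.261 without replicate 1 of sog1-1 rab8d-2, 0.137 without its replicate 3 and 0.0998 without replicate 3 of rab8d-2. ATM, the kinase upstream of SOG1, was at 46.8, 45.9 and 47.5 CPM against 52.4, 51.5 and 57.1 (-0.20 ± 0.04, adjusted p = 0.000146). The libraries labelled nac044-1 rab8d-2, used here only as values set beside others, held the highest NAC044 RNA, at 157.3 to 163.8 CPM.

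Outside chromosome 1, 4175 genes were higher and 3674 lower in sog1-1 rab8d-2. Changes of at least 2-fold were fewer and leaned upward, with 463 genes higher and 168 lower, or 4.29% of those tested and 73.4% of them in the higher direction. Over all tested genes 4.91% were called with at least a 2-fold difference, 3.37% higher and 1.54% lower. The median log2 fold change over all genes was -0.01. The scaling between libraries places the bulk of genes near 0, so list medians are relative to that bulk.

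The DNA damage response moved down as a group. Of 25 genes named for their induction by DNA breaks, PARP3 was too low to test, 21 of the other 24 were lower and 0 higher, with a median log2 fold change of -0.53. For these 21 genes the 3 sog1-1 rab8d-2 libraries all lay under the 3 of rab8d-2, while 59.3% of all tested genes had libraries that did not overlap in either direction. Outside chromosome 1, 18 of 20 were lower, with a median of -0.59. In rab8d-2 against WT the same list had 21 genes higher and 0 lower, with a median of 0.65, where 64.5% of all tested genes were called, 31.7% higher and 32.9% lower. Summed over the list, levels were 315.3 to 326.4 CPM in WT, 507.5 to 524.3 in rab8d-2, 436 to 450.2 in atm-2 rab8d-2 and 325.5 to 337.1 in sog1-1 rab8d-2. The comparisons share libraries, so these values are set side by side and not tested against each other.

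SOG1 is known to bind a palindrome made of CTT and AAG with any 7 bases between them. It was searched for in the window from 250 bases before to 50 bases after the annotated start of each gene in the TAIR10.1 reference (RefSeq). The palindrome reads the same on both strands. It occurs in 10 of the 25 list promoters (40%) and in 11.8% of 27443 protein-coding promoters. The sites below are shown because they belong to list members whose levels are described next, 6 that fell and SMR4, SMR5 and KRP6 that did not pass the test. Letters run 5′ to 3′ on the gene's own strand, and capitals mark the palindrome. SMR5 and SMR7 hold 2 matches each, marked a and b.
NAC103 (chr5:25635769-25635797, minus strand): acccctggCTTCTCCTTCAAGctatactc
PARP2 (chr4:1049662-1049690, plus strand): ttttgtttCTTTTAATAGAAGagttaaac
RAD54 (chr3:6658989-6659017, minus strand): ttttagtcCTTTTCTGATAAGgttatttt
COM1 (chr3:19325962-19325990, plus strand): agcaaaagCTTCTCGGGTAAGcctccact
SMR7 a (chr3:10231590-10231618, minus strand): ctaataatCTTCCTCTGAAAGcttcattc
SMR7 b (chr3:10231520-10231548, minus strand): actctttcCTTTAAGAAGAAGaaactctt
SMR4 (chr5:442253-442281, minus strand): agaaagagCTTCGTGAGAAAGattccttt
SMR5 a (chr1:2305107-2305135, minus strand): cctagcaaCTTCCAGAACAAGctacggtc
SMR5 b (chr1:2305043-2305071, minus strand): ttaagaacCTTATTAGGAAAGtgcgagag
NAC044 (chr3:229002-229030, plus strand): gtatctggCTTGGGGAGCAAGgttagcgg
KRP6 (chr3:6617936-6617964, minus strand): ttcaattgCTTTGAAAGGAAGccaaaaag
Of the 10 list genes with the palindrome 7 were lower, and of the 14 tested list genes without it in this window all 14 were lower, BRCA1 among them. Across all tested genes with an annotated promoter, 24.5% of those with the palindrome and 26.1% of those without it were lower. A match of letters is a description of the window and not a measured binding site.

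Among the repair genes BRCA1, a ubiquitin ligase subunit of homologous recombination, changed most. It was at 12, 12.7 and 12.1 CPM in sog1-1 rab8d-2, 28.8, 27.2 and 26.4 in rab8d-2 and 18, 20.3 and 20 in WT. The double mutant thus lay below both, by -1.16 ± 0.06 against rab8d-2 (adjusted p = 4.79e-21) and by -0.67 against WT (adjusted p = 7.06e-12). PARP2, a poly(ADP-ribose) polymerase that responds to strand breaks, was at 23, 21.8 and 22.8 CPM against 35.2, 34 and 34.8 (-0.62 ± 0.05, adjusted p = 1.12e-13). XRI1, named for its induction by X-rays, was lower by -0.81 ± 0.06 and RPA1E, a subunit of the protein that coats single-stranded DNA, by -0.76 ± 0.10. RAD21.1 (a cohesin subunit), MND1, PARP1, RAD17, RAD54 and COM1, all of repair or recombination, lay between -0.55 and -0.39.

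The remaining members differed in how far they came back towards WT. TSO2, the small subunit of ribonucleotide reductase that supplies deoxynucleotides, was at 52.1, 55.9 and 50.2 CPM in sog1-1 rab8d-2 against 110.1, 109.6 and 105 in rab8d-2 (-1.04 ± 0.04, adjusted p = 8.46e-28). WT stood between them at 70.9, 69.9 and 73.8 CPM, while atm-2 rab8d-2, at 109, 114 and 108.2, stood with rab8d-2. GMI1, a structural protein of recombination whose name records its gamma-ray induction, was at 26.5, 30.5 and 27.5 CPM against 45.3, 45.6 and 45.4 (-0.69 ± 0.05, adjusted p = 1.07e-15). It remained above the 17.9, 17.8 and 17.8 CPM of WT, and atm-2 rab8d-2 was again high at 50.8, 48.5 and 54.1. Against atm-2 rab8d-2 the list as a whole had 14 genes lower and 4 higher in sog1-1 rab8d-2, with a median of -0.28, beside 57.8% called among all tested genes, 30% lower and 27.8% higher.

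NAC transcription factors of the list did not move together in size. NAC103 was at 10.8, 9.88 and 10.8 CPM in sog1-1 rab8d-2 against 22.4, 22 and 21.2 in rab8d-2 (-1.05 ± 0.07, adjusted p = 7.15e-18), still above the 4.65, 4.98 and 4.92 of WT. NAC044 changed by much less, with 17.2, 17.2 and 16.3 CPM against 19.7, 18.8 and 19.8 (-0.20 ± 0.06, adjusted p = 0.00521) and 5.15, 5.89 and 4.47 in WT. The double mutant libraries lay under those of rab8d-2 for both genes without overlap, but for NAC044 they stayed near the mutant level. NAC085 was low everywhere, at 0.76, 1.22 and 1.22 CPM against 1.64, 2.18 and 1.39, and its difference of -0.70 ± 0.26 (adjusted p = 0.0198) did not pass with DESeq2 (adjusted p = 0.0679), without replicate 1 of sog1-1 rab8d-2 (0.129) or without replicate 2 of rab8d-2 (0.146).

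Inhibitors of cyclin-dependent kinases, which stop the cell cycle, were mixed. SMR7 of the damage response was at 2.43, 1.94 and 2.08 CPM against 4.09, 3.09 and 2.78 (-0.63 ± 0.17, adjusted p = 0.00133), with no overlap. KRP6 was at 26.4, 28.3 and 24.5 CPM against 28.5, 27.8 and 24.5, which overlap (-0.03, adjusted p = 0.706), and both mutants lay above the 15.3, 15.7 and 16.2 of WT. SMR4 (-0.34, adjusted p = 0.0725) and SMR5 (-0.19, adjusted p = 0.66) did not pass the test, and SMR4 passed without replicate 3 of sog1-1 rab8d-2 (0.0307) or of rab8d-2 (0.0107). Over all 21 inhibitors tested, which include these 4, 6 were higher and 2 lower, beside 28.7% higher and 26% lower among all tested genes. The median of the inhibitors was -0.00, with 3 higher and 1 lower by DESeq2. KRP1 (0.29 ± 0.11) and KRP2 (0.27) were among the higher ones. CYCB1;1, a mitotic cyclin that plants also induce on DNA damage, was at 12.1, 11.8 and 12.7 CPM against 16.9, 17 and 17.4 (-0.49 ± 0.08, adjusted p = 3.56e-07).

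Of the list members on chromosome 1, BARD1, AGO2 and WEE1 were lower, with smaller values. SMR5, also on chromosome 1, did not pass the test (-0.19, adjusted p = 0.66). BARD1, the partner of BRCA1, was lower by -0.39 and AGO2, an Argonaute protein loaded with small RNAs from breaks, by -0.28. WEE1, a kinase that holds back division, was at 6.28, 7.08 and 6.69 CPM against 8.14, 7.2 and 8.44 (-0.25 ± 0.10, adjusted p = 0.0428), and this call was lost with DESeq2 (adjusted p = 0.126) and without replicate 1 or 3 of either genotype (adjusted p from 0.0759 to 0.16).

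**Figure D1:**
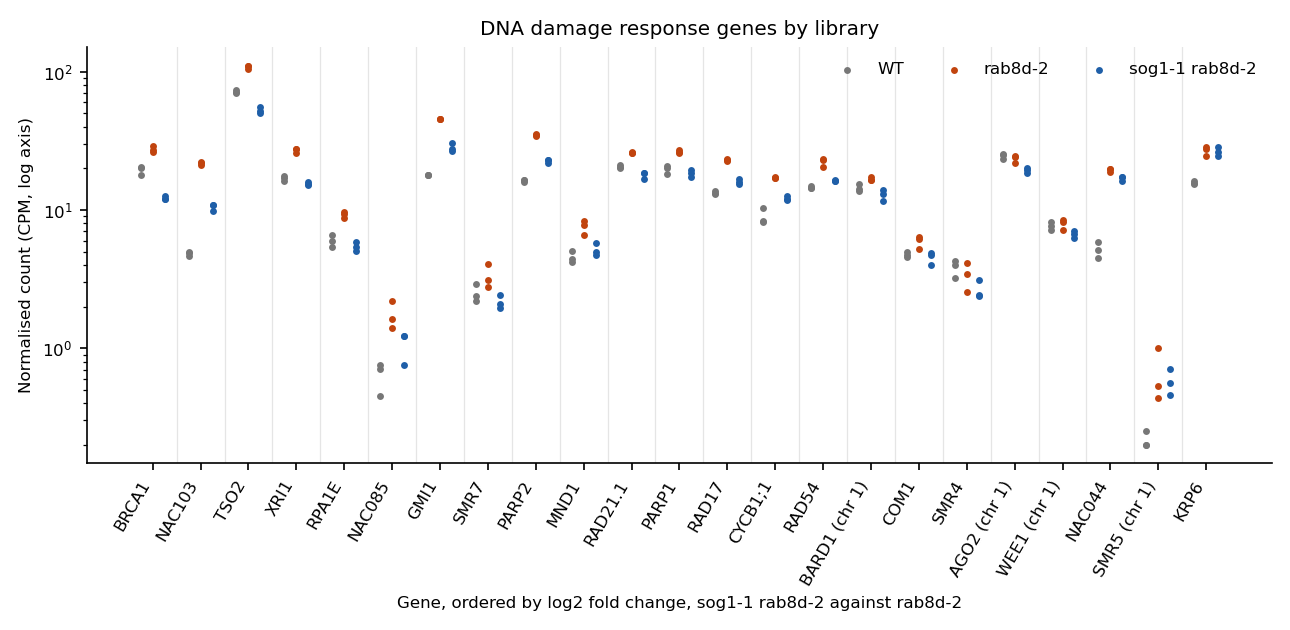
Normalised counts (CPM, log axis) of 23 of the tested DNA damage response genes in each library of WT (grey), rab8d-2 (orange) and sog1-1 rab8d-2 (blue), ordered by log2 fold change of sog1-1 rab8d-2 against rab8d-2; each dot is 1 library. From BRCA1 at the left the blue dots lie under the orange ones for 20 genes, while they overlap for SMR4, SMR5 and KRP6.

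Most genes of recombination and DNA synthesis were lower, by smaller amounts. Of 21 recombination and end joining genes 13 were lower (9 of the 15 outside chromosome 1) and 0 higher, with a median of -0.17. MSH6, which recognises mismatched bases, was among them (-0.36). Of 8 break sensors and signalling kinases 3 were lower, RAD50 (-0.27), NBS1 (-0.25, adjusted p = 0.0481) and ATM. The remaining 5 were not called, while 26% of all tested genes were lower. The call of NBS1 was lost with DESeq2 and without any 1 of 4 libraries, with adjusted p from 0.0959 to 0.298. Of 28 S phase genes 23 were lower (17 of the 22 outside chromosome 1) and 0 higher, with a median of -0.28. RNR1, the large subunit of ribonucleotide reductase, was at 64, 62.1 and 61 CPM against 95.3, 89.3 and 90.1 (-0.55 ± 0.04), and MCM6 and MCM4 of the replicative helicase were lower by -0.42 and -0.41. The same 28 genes had 19 higher and 0 lower in rab8d-2 against WT, with a median of 0.19, and 2 higher and 9 lower in sog1-1 rab8d-2 against WT, with a median of -0.11. Among all tested genes the shares were 31.7% higher and 32.9% lower in the former comparison, and 28.8% higher and 29.2% lower in the latter.

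G2 and mitosis genes that were called went in the same direction. Of 28, 17 were lower and 0 higher, with a median of -0.24. Of the 17 tested outside chromosome 1, 8 were lower and 0 higher, with a median of -0.21. CYCB2;3, a mitotic cyclin encoded on chromosome 1, was at 17.4, 18 and 19 CPM in sog1-1 rab8d-2 against 25.6, 26.5 and 28 in rab8d-2 (-0.56). CDC20.1, an activator of the complex that ends mitosis, was at 41.4, 41.9 and 41.3 CPM against 56.3, 55.2 and 58 (-0.44). Neither gene's libraries overlapped between the genotypes. More of the mitotic genes stood below WT, with 15 lower and 1 higher in sog1-1 rab8d-2 against WT and a median of -0.19, where 58.1% of all tested genes were called, 29.2% lower and 28.8% higher. Against atm-2 rab8d-2 only 2 were lower and 2 higher, with a median of 0.01. Of 12 cell cycle regulators such as the E2F factors, 2 were lower, CCS52B (-0.39) and E2FA (-0.29, adjusted p = 0.0132), and 0 higher. The other 10 were not called, beside 26% lower among all tested genes. The E2FA call was lost with DESeq2 (adjusted p = 0.0554), without replicate 2 of rab8d-2 (0.0772) and without replicate 3 of sog1-1 rab8d-2 (0.117).

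Stem cell and meristem factors leaned down. Of 12 tested, 7 were lower and 1 higher, with a median of -0.31. ERF115, which prompts quiescent centre cells to divide and restores damaged root tips, was at 1.17, 0.815 and 1.12 CPM against 2.94, 2.37 and 2.73 (-1.37 ± 0.20). PLT3, one of the PLETHORA factors that set up the root meristem, was at 40.6, 37.4 and 40 CPM against 62.9, 63.6 and 64.8 (-0.70 ± 0.04), with 31.7, 30 and 29.6 in WT. BBM of the same family was lower by -0.53 ± 0.09. WOX5, the marker of the quiescent centre, was at 4.71, 4.99 and 5.63 CPM against 5.2, 4.64 and 5.22, which overlap (0.02 ± 0.11, adjusted p = 0.872), and both lay above the 1.4, 1.21 and 1.00 of WT. Against WT, WOX5 was higher by 2.05 in rab8d-2 and by 2.08 in sog1-1 rab8d-2, while BBM was higher by 1.26 and 0.73.

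Genes of differentiated root tissues rose. In roots taken whole, more cells of a type and more RNA per cell cannot be told apart. Of 10 endodermis genes 9 were higher and 0 lower, with a median of 0.64. PER64, a peroxidase of the Casparian strip, was at 118.2, 120.4 and 121.4 CPM in sog1-1 rab8d-2 against 74, 74 and 72.4 in rab8d-2 (0.71 ± 0.03) and 113.8, 112.5 and 107.5 in WT. CASP1, a membrane protein that places the strip, was higher by 0.63. SCR, which specifies the layer, overlapped between the genotypes at 42, 44.2 and 44.5 against 42.9, 40.8 and 42.8 CPM. Against WT, 5 of the 10 were higher and 1 lower in sog1-1 rab8d-2, with a median of 0.11, and 1 was higher and 9 lower in rab8d-2, with a median of -0.58.

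Xylem genes followed the same course. Of 15, 14 were higher and 0 lower, with a median of 0.73. XCP1, a protease of dying vessel cells, was at 132.6, 131.7 and 137.2 CPM against 68.2, 70.7 and 71.7 (0.93 ± 0.03). CESA4, which makes secondary wall cellulose, was at 60, 60.9 and 61.3 CPM against 35.7, 35.5 and 34.5 (0.79). For both genes all 3 double mutant libraries were well clear of the single mutant. Against WT the xylem list kept a median of -0.23, with 9 of 15 lower and 3 higher. Of 10 root hair genes 9 were higher (all 4 of those outside chromosome 1), with a median of 0.56. EXPA18, an expansin of hair cells on chromosome 1, was higher by 0.94 and COBL9, needed for hair growth, by 0.60. RHD6, the factor that starts hair formation, encoded on chromosome 1, was the 1 that fell (-0.21).

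Most suberin and phloem genes were higher than in rab8d-2. Of 12 suberin genes 10 were higher and 1 lower, with a median of 0.43. ASFT, which adds ferulate to suberin, was at 225.4, 233.4 and 221.2 CPM against 136.6, 135 and 136 (0.74). ABCG6, a transporter of suberin precursors, was at 39.6, 40.2 and 38.7 CPM against 26.3, 27.8 and 26.7 (0.55), with a mean of 112.8 in WT. FAR1, a reductase that makes suberin alcohols, was the 1 that fell (-0.32). Against WT the list remained at -1.07 in sog1-1 rab8d-2 and at -1.38 in rab8d-2. Of 11 phloem genes 7 were higher and 0 lower, led by SEOR2 (1.06) and SEOR1 (0.83), filament proteins of sieve elements. Against WT 7 phloem genes were lower and 1 higher in sog1-1 rab8d-2, with a median of -0.31. Of 5 root cap genes 2 were higher and 1 lower (0 lower in 6 alternative analyses). Among hormone lists, 7 of 10 cytokinin response genes were higher and 0 lower, including the negative regulators ARR9 (0.68) and ARR6, the latter at 69.3, 73 and 71.4 against 52.5, 52.2 and 52.8 CPM (0.44). The 19 auxin genes split into 3 higher and 5 lower, with a median of -0.01. For the 15 outside chromosome 1 the split was 3 higher and 2 lower, with a median of 0.10.

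**Figure D2:**
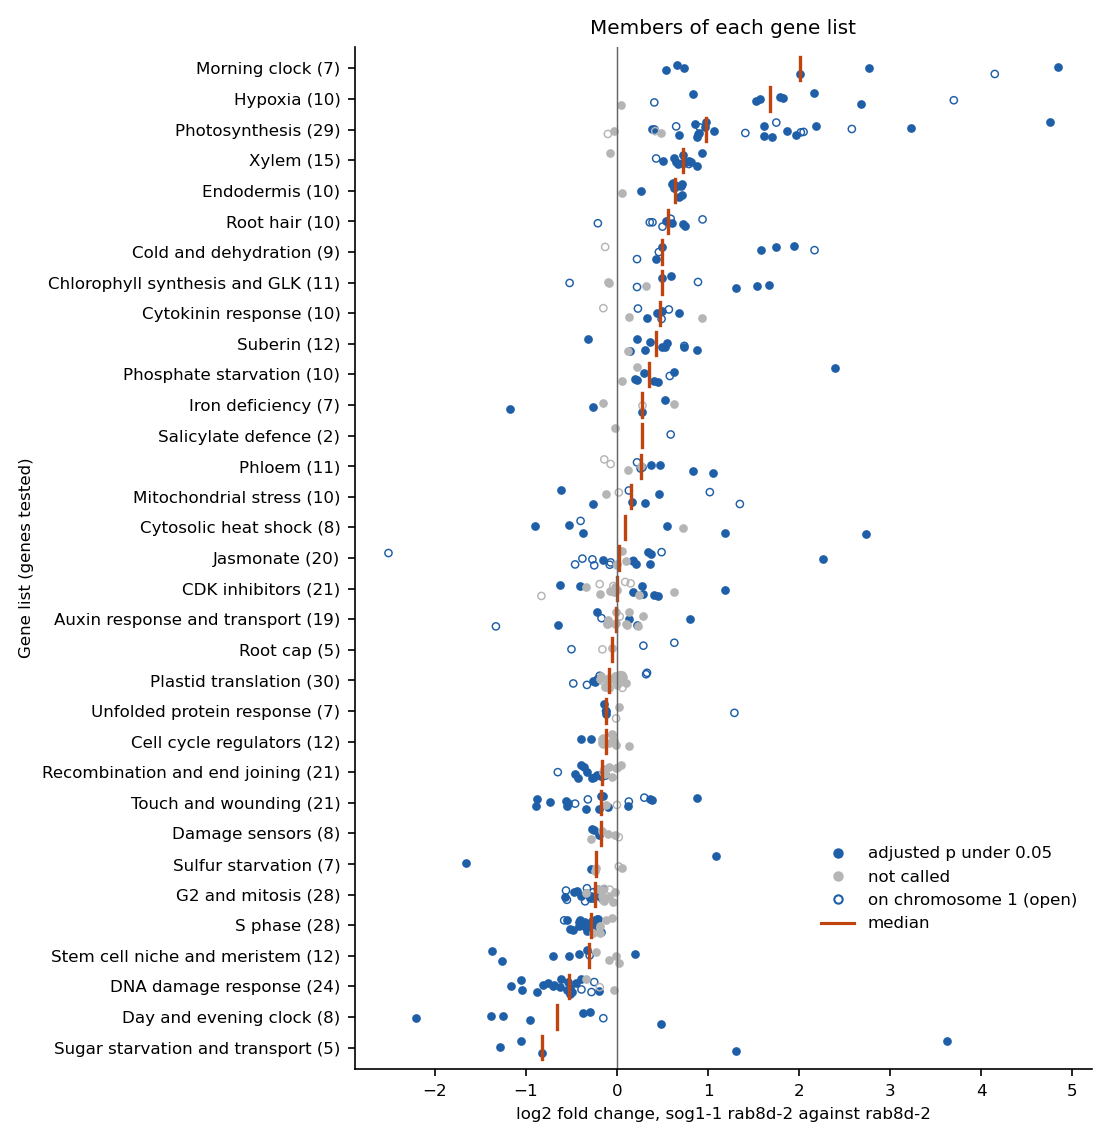
Log2 fold changes of sog1-1 rab8d-2 against rab8d-2 for the tested members of each gene list (number in brackets), 1 dot per gene, blue where the adjusted p was under 0.05, grey where not, open on chromosome 1; the red bar is the list's median. Morning clock (median 2.01), hypoxia (1.68) and photosynthesis (0.98) stand highest, and the DNA damage response (-0.53) and day and evening clock (-0.66) are among the lowest.

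Clock genes split by time of day. All 7 morning genes were higher, with a median of 2.01, and 7 of 8 day and evening genes were lower, with a median of -0.66. CCA1, the MYB factor of dawn, was at 18.5, 19.3 and 19.6 CPM in sog1-1 rab8d-2 against 0.674, 0.338 and 0.959 in rab8d-2 (4.85 ± 0.14, adjusted p = 1e-31). Its relative LHY on chromosome 1 was at 14.2, 14 and 13.2 CPM against 0.866, 0.628 and 0.815 (4.15 ± 0.15). ELF4, a member of the evening complex, was at 27.3, 27.2 and 27.4 CPM against 136, 121.2 and 122.7 (-2.21 ± 0.05). TOC1, another evening gene, was at 103.1, 106.6 and 101.3 CPM against 204.2, 193.4 and 202.2 (-0.95), and LUX was lower by -1.25.

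CCA1 was high and ELF4 low in atm-2 rab8d-2 too. CCA1 was at 15.2, 15 and 15 CPM there, against 0.338 to 1.20 in the 12 libraries of the 4 remaining genotypes. ELF4 was at 29.1, 30.8 and 28.1 CPM in atm-2 rab8d-2, and between 121.2 and 186.9 in those 12 libraries. Between sog1-1 rab8d-2 and atm-2 rab8d-2 3 of the 7 morning genes were higher and 2 lower, with a median of 0.08, and 4 of the 8 day and evening genes were higher and 3 lower, with a median of -0.00. PRR9, a morning gene of the pseudo-response regulator family, was at 29.2, 26.7 and 27.1 CPM in sog1-1 rab8d-2 and 53.7, 53.5 and 53.3 in atm-2 rab8d-2 (-0.95 ± 0.05 between them), with 4.14, 4.4 and 3.59 in rab8d-2. No source used here gives the hour at which roots were taken. Clock phase, time of sampling and genotype cannot be told apart. Several genes of the lists that follow are known to change through the day, and the part of the hour in their values was not tested.

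Photosynthesis genes, silent or weak in most roots, rose in the double mutant. Of 37 in the list 29 could be tested, 25 were higher and 0 lower, and 14 of these by at least 2-fold, with a median of 0.98. Outside chromosome 1, 18 of 20 were higher, with a median of 0.97. RCA, the activase of Rubisco, was at 40.7, 39.5 and 40 CPM in sog1-1 rab8d-2 against 13.4, 11.6 and 11.9 in rab8d-2 (1.70 ± 0.06), above even the 29.4, 28.4 and 31.1 of WT. PSBR, a photosystem II protein encoded on chromosome 1, was at 27.1, 25.9 and 26.2 CPM against 6.21, 6.48 and 6.42 (2.05), below the 40.8, 40.8 and 40 of WT. LHB1B2, a light-harvesting protein, was at 13.6, 14.2 and 13.4 CPM against 1.54, 1.6 and 1.25 (3.23 ± 0.13), with close copies among which the authors' counting may have split reads. Summed over the list, levels were 255.4 to 263.2 CPM in sog1-1 rab8d-2, 106.8 to 110.7 in rab8d-2, 324.1 to 338.5 in WT and 176.6 to 182.1 in atm-2 rab8d-2. Against atm-2 rab8d-2, 20 were higher and 3 lower, with a median of 0.67.

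Chlorophyll synthesis was less uniform. Of 11 tested genes 7 were higher and 1 lower, with a median of 0.49. GLK2, a factor that activates genes of green plastids, was at 8.16, 8.5 and 7.35 CPM against 2.79, 2.22 and 2.49 (1.67 ± 0.12). GUN5, a subunit of magnesium chelatase, was at 19.2, 18.9 and 20.5 CPM against 8.47, 7.44 and 7.76 (1.31 ± 0.08). Both remained under WT, with 11.8 to 13.6 CPM for GLK2 and 34.2 to 38.1 for GUN5. CHLD, another chelatase subunit, encoded on chromosome 1, fell (-0.52). The genes of the plastid's own translation machinery, in which RAB8D acts, gave 2 higher and 6 lower of 30, with a median of -0.09, and thus mostly did not pass the test. The 19 outside chromosome 1 gave 0 higher and 3 lower.

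The hypoxia response set the double mutant apart from both rab8d-2 and atm-2 rab8d-2. Of 10 genes that low oxygen is known to induce, 9 were higher and 0 lower, 7 of them by at least 2-fold, with a median of 1.68. PDC1, which makes acetaldehyde in ethanol fermentation, was at 84.2, 86.5 and 82.8 CPM in sog1-1 rab8d-2 against 18.4, 18.8 and 19.6 in rab8d-2 (2.16 ± 0.05, adjusted p = 1.19e-36). WT, at 15.5, 13.7 and 15, and atm-2 rab8d-2, at 19.9, 21.3 and 20.1, were on the low side, whereas nac085-1 rab8d-2 was higher still at 128, 129.1 and 126 CPM. ADH1, the next enzyme of that path, on chromosome 1 but 2933 tested genes from SOG1, was at 36.8, 37.9 and 35.2 CPM against 2.02, 3.29 and 3.12 (3.70 ± 0.09, adjusted p = 6.06e-34). It too was highest in nac085-1 rab8d-2, at 74.1, 76.7 and 73.9 CPM. PCO1, an enzyme through which plant cells sense oxygen, was at 21.8, 23.1 and 22.3 CPM against 3.61, 3.72 and 3.16 (2.68). LBD41, SUS4 and HB1 were higher by 1.79, 1.82 and 1.57, and SUS1 was the 1 that did not pass (0.04, adjusted p = 0.318). In sog1-1 rab8d-2 against WT all 10 were higher, with a median of 1.36, and in rab8d-2 against WT 3 were higher and 4 lower, with a median of -0.16. Summed levels of 384.5 to 395 CPM in sog1-1 rab8d-2 compare with 180.4 to 185.1 in atm-2 rab8d-2, against which 9 of the 10 were higher and 1 lower, with a median of 1.62.

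Sugar genes changed in both directions. SWEET11, a sucrose exporter, was at 19.8, 20.2 and 17.1 CPM in sog1-1 rab8d-2 against 1.16, 2.08 and 1.39 in rab8d-2 (3.62 ± 0.13) and 1.56, 2.05 and 1.65 in atm-2 rab8d-2, with 53.6, 48.1 and 51.3 in WT. SWEET12, its close relative, was at 43.7, 40.9 and 41.5 CPM against 15.9, 17.3 and 17.8 (1.31 ± 0.06). The genes that sugar shortage induces were all lower, namely ASN1 (-1.29 ± 0.06), DIN10 (-1.05) and SEN1 (-0.82). DIN10, at 192.8, 199.8 and 198.7 CPM against 418, 410.9 and 395.8, was also low in atm-2 rab8d-2 (177.7, 176.6 and 180.1).

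**Figure D3:**
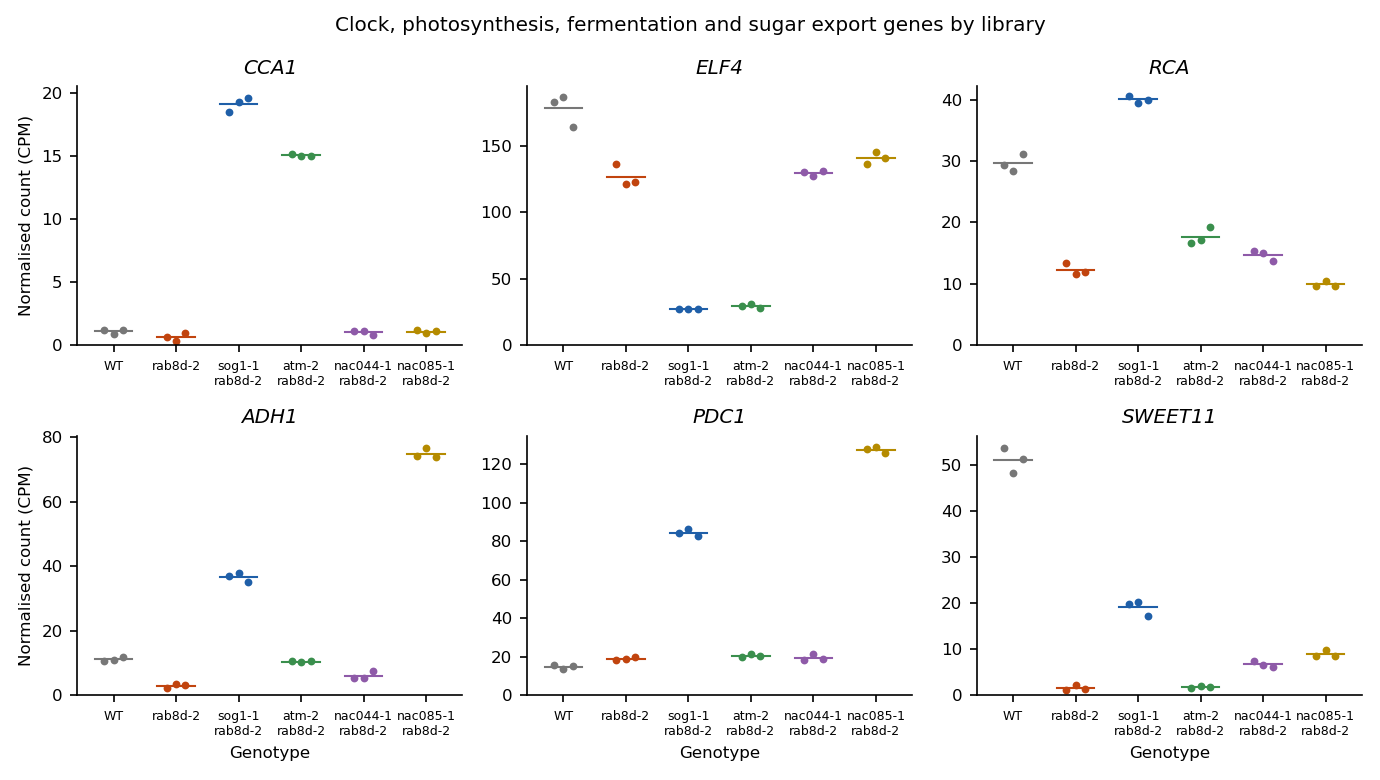
Normalised counts (CPM) of CCA1, ELF4, RCA, ADH1, PDC1 and SWEET11 in each library of the 6 genotypes; dots are libraries and bars are means of 3. CCA1 and ELF4 separate sog1-1 rab8d-2 and atm-2 rab8d-2 from the rest, ADH1 and PDC1 are high in the doubles with sog1-1 and with nac085-1, and SWEET11 is near its rab8d-2 level in atm-2 rab8d-2.

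Among other environmental responses, cold and dehydration genes rose, 8 of 9 higher and 0 lower, with a median of 0.50. RD29A was at 379.8, 372.9 and 391.2 CPM against 129.1, 126.3 and 126.1 (1.58), with 48.5, 49.3 and 47.3 in WT, and was far higher in atm-2 rab8d-2 at 1379, 1489 and 1465. KIN2 was higher by 1.95 ± 0.06 and GOLS3, on chromosome 1, by 2.17 ± 0.14. In phosphate starvation, 8 of 10 were higher and 0 lower, with a median of 0.35. RNS1, a ribonuclease that frees phosphate from RNA, was at 13.5, 12 and 12.5 CPM against 2.7, 2.03 and 2.49 (2.39 ± 0.12), and at 58.6, 54.7 and 61.1 in atm-2 rab8d-2. PHT1;1, a phosphate transporter, was at 503.7, 495 and 483.1 CPM against 354.3, 363.6 and 366.7 (0.45).

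Jasmonate genes over all chromosomes were evenly split against rab8d-2, with 8 higher and 8 lower of 20 and a median of 0.02. Outside chromosome 1, 6 of 10 jasmonate genes were higher and 1 lower, with a median of 0.20. Touch and wounding genes leaned down, with 6 higher and 13 lower of 21. ORA47, an early jasmonate factor on chromosome 1, was at 7.95, 9.57 and 8.21 CPM against 45.8, 50.4 and 50.1 (-2.51 ± 0.06). ERF13 (-0.89), ERF6 (-0.74) and TCH4 (-0.54) were among the touch genes that fell. Against atm-2 rab8d-2, 19 of the 20 jasmonate genes were higher and 0 lower, with a median of 2.68, and 20 of the 21 touch genes were higher and 1 lower, with a median of 2.15. The remaining lists were mixed. Mitochondrial stress had 6 higher and 2 lower of 10, the unfolded protein response 1 higher and 4 lower of 7 (0 higher in 5 alternative analyses), and cytosolic heat shock 3 higher and 4 lower of 8. In that last list HSP17.6II was higher by 2.73 ± 0.22 and HSP90.1 lower by -0.53 ± 0.04. Iron deficiency had 2 higher and 2 lower of 7, with the iron transporter gene IRT1 lower by -1.17, sulfur starvation 1 higher and 2 lower of 7, and salicylate defence 1 higher of 2 tested.

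Among genes whose mean log2 CPM reached 1, the highest outside chromosome 1 include members of these groups and others. After CCA1 came FRO5, a ferric reductase family member, at 9.53, 10.5 and 9.43 CPM against 0.578, 0.29 and 0.575 (4.33 ± 0.18), with 3.5, 3.88 and 3.66 in WT. NIP2;1, an aquaporin induced by low oxygen, was at 6.74, 5.65 and 5.93 CPM against 0.289, 0.387 and 0.24 (4.30), and like ADH1 was also high in nac085-1 rab8d-2 (10.4, 9.29 and 9.46). AT3G54500, which the reference annotation gives no symbol, was at 125.1, 120.8 and 128.4 CPM against 10.5, 10.4 and 10.7 (3.56), and at 78.5, 80.8 and 80.9 in atm-2 rab8d-2. SWEET3, a sugar transporter, was at 4.86, 5.91 and 5.78 CPM against 0.53, 0.435 and 0.671 (3.32), near the 6.55, 5.79 and 6.57 of WT. CKX4, which breaks down cytokinin, was at 12.8, 13.5 and 13.6 CPM against 1.3, 1.69 and 1.87 (3.03). In each of these genes the lowest double mutant library exceeded the highest rab8d-2 library several times over.

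Among the lowest outside chromosome 1, JMJD5, a histone demethylase family member tied to the clock, was at 2.94, 3.77 and 3.65 CPM against 61.3, 61.4 and 62.1 (-4.16 ± 0.07), and COR27, a clock- and cold-regulated gene, at 1.62, 1.63 and 1.12 against 22.4, 23.4 and 21.3 (-3.94). Both were as low in atm-2 rab8d-2, with 2.09 to 2.97 and 1.36 to 1.5 CPM. PDF2.1, a defensin-like protein, was at 0.355, 0.458 and 0.253 CPM against 9.24, 8.41 and 8.29 (-4.58 ± 0.20), with 0.75, 0.856 and 1 in WT and means of 3.47 in the double with nac044-1 and 3.29 in that with nac085-1. AT2G05642 had 11.3, 11.3 and 10.8 CPM in rab8d-2 and no count in any library of sog1-1 rab8d-2, WT or atm-2 rab8d-2. With a floor of 3 counts over the group it was at least 219.1-fold lower in sog1-1 rab8d-2, and the nearby AT2G05635 at least 58.5-fold lower. QQS, an orphan gene of carbon and nitrogen allocation, had 1 count in the 3 sog1-1 rab8d-2 libraries against 7.08, 7.15 and 7.43 CPM in rab8d-2, a ratio of 426.7 (95% exact binomial interval 76.2 to 16892, counting error only). WT was low for QQS too, at 0.35, 0.352 and 0.251 CPM, as was atm-2 rab8d-2 with a mean of 0.195. The doubles with nac044-1 and nac085-1 had QQS means of 1.06 and 5.53 CPM.

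Chromosome 1 had more strongly changed genes than the others. Of its 5285 tested genes 1550 were higher and 1520 lower, and 210 and 140 of them by at least 2-fold, together 6.62%. On chromosomes 2, 3, 4 and 5 the share with at least a 2-fold difference was 4.65%, 3.72%, 4.57% and 4.37%. The excess had a place. Counted in bins of 100 tested genes from SOG1, the share reached 16% and 15% in the 2 bins before the gene and 15% in bins 5 and 6 after it, then dropped to 1% in bin 9. Over the stretch from 15 bins before to 8 bins after, which was chosen after the bins were seen and runs from AT1G07000 to AT1G47640, 235 of 2301 genes (10.2%) differed by at least 2-fold, 128 higher and 107 lower. On the rest of the chromosome 115 of 2984 (3.85%) did, which is near the 4.29% outside chromosome 1.

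A narrower count takes genes that differ at least 2-fold in the same direction between sog1-1 rab8d-2 and each of the 5 other genotypes. These 5 comparisons share the sog1-1 rab8d-2 libraries. There were 113 such genes, or 0.566% of those tested, and 92 of them (81.4%) lie on chromosome 1. The stretch around SOG1 holds 86, of which 54 were lower and 32 higher. When each of the other 5 genotypes was taken in turn against the rest, 17% to 31.4% of such genes were on chromosome 1. For scale, chromosome 1 holds 5285 of the 19981 tested genes. The effect of the sog1-1 allele on a gene near SOG1 and that of linked sequence cannot be told apart with this design.

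**Figure D4:**
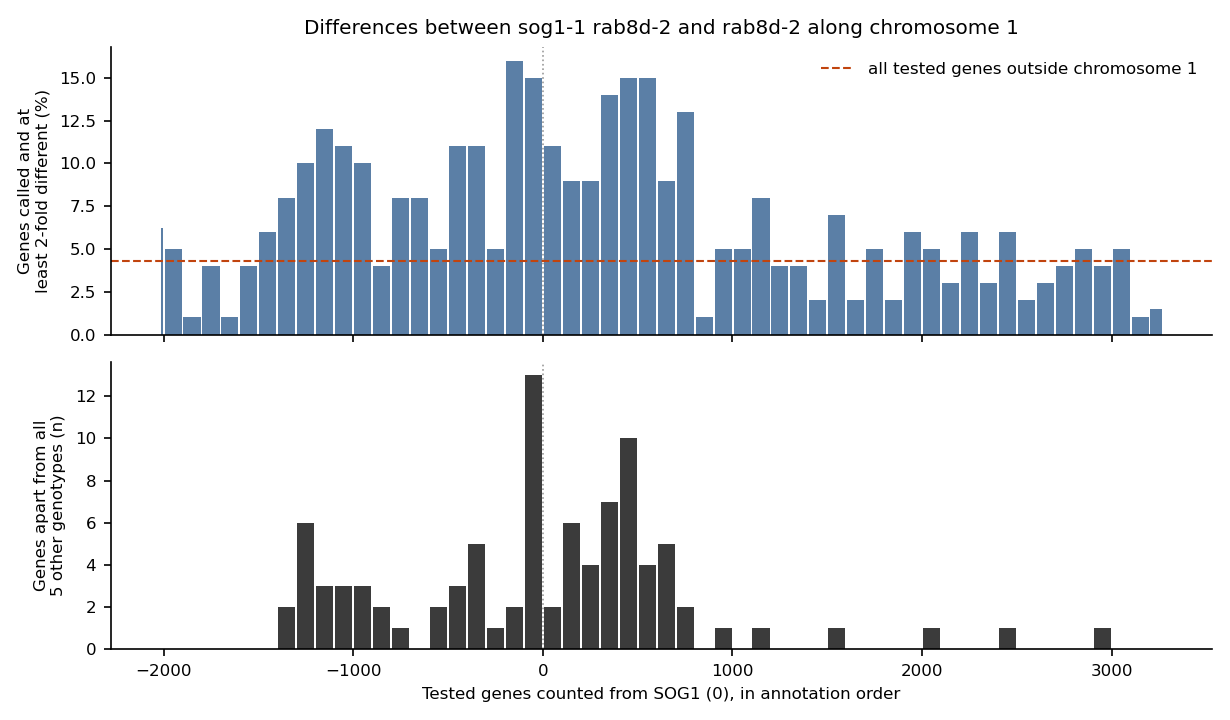
Top: percentage of genes called with at least a 2-fold difference between sog1-1 rab8d-2 and rab8d-2 in bins of 100 tested genes along chromosome 1, counted from SOG1 (0, dotted line), with the share outside chromosome 1 (4.29%) dashed; the end bins hold fewer genes. Bottom: number of genes per bin that differ at least 2-fold in the same direction from all 5 other genotypes, highest at 13 in the bin just before SOG1.

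Some differences in this stretch were between counts in 1 genotype and none in the other. Of the 86 genes 14 had no count in the 3 sog1-1 rab8d-2 libraries and 7 none in those of rab8d-2. Some of these rested on few reads. AT1G24480 had 11 counts in rab8d-2 and was at least 3.48-fold lower, and CSLD6 had 13 and was at least 4.11-fold lower. AT1G24388, 63 tested genes before SOG1, was at 32.6, 31.5 and 31.1 CPM in sog1-1 rab8d-2 and at 0 in all 15 other libraries, at least 659.4-fold higher than in rab8d-2. Its neighbour AT1G24370 was at 20.2, 21.3 and 17.5 CPM against 0, 0.242 and 0.24. On the other side AT1G27580 was at 80.4, 76.5 and 76.8 CPM against 0.144, 0.338 and 0.479 (7.90 ± 0.12), and the adjacent AT1G27570 at 11.9, 11.5 and 10.3 against 0 in rab8d-2, at least 233.4-fold higher. Further out AT1G12340 and AT1G10875 were at least 135-fold and 42.5-fold higher.

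In the opposite direction AT1G35115 had no count in sog1-1 rab8d-2 and 83.6, 85.8 and 83.6 CPM in rab8d-2, at least 1661-fold lower. SADHU1-2, a transposable element of the SADHU family, had none against 47.4, 45.6 and 49.4 CPM, at least 935-fold lower. AT1G27180, a disease resistance gene of the TIR-NBS-LRR class, was at 0.659, 0.662 and 0.71 CPM against 29.5, 28.4 and 31.7 (-5.45 ± 0.12), with 28.4 to 38.6 CPM in all 15 other libraries. Of the bounds, those of AT1G24851, AT1G34050, AT1G27285 and AT1G45163 were smaller, from 31.9-fold to 44.9-fold lower. AT1G25055 was the least even of the higher genes, at 17.4, 34.9 and 1.72 CPM, and it also varied between 0 and 21.8 among the atm-2 rab8d-2 libraries.

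The DNA damage, photosynthesis, hypoxia and xylem lists kept their direction outside chromosome 1, with medians of -0.59, 0.97, 1.68 and 0.72. All 10 endodermis genes lie outside it, so their median of 0.64 is unchanged. Cold and dehydration genes outside it had a median of 1.58 over 5 genes, all 5 higher. G2 and mitosis genes outside it were lower for 8 of 17 (17 of 28 in all). Auxin genes outside it were lower for 2 of 15 (5 of 19 in all). The jasmonate list outside chromosome 1 had 6 higher and 1 lower of 10, with a median of 0.20.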

How the data were processed

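Poly(A) RNA from roots of 18 samples was sequenced, per the labels' protocols. The deposited table gives, for each of 25537 genes, estimated counts that the authors made with RSEM 1.3.1, per the submitters' processing notes. It also holds TPM and FPKM columns, deposited by the authors and not used in any test. The sources used here do not give the aligner, build, annotation or strand, so antisense and overlapping transcripts may share counts. Names, gene order and promoters come from TAIR10.1, which lists 25462 of the identifiers; the others are plastid (68) and mitochondrial (7).

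Estimated counts were rounded. They were scaled by TMM (factors from 0.97 up to 1.02) and filtered by filterByExpr (19981 genes left) in edgeR 4.0.16 (R 4.3.3), with 1 mean per genotype over all 18 libraries (20103634 to 20471203 counts each), a quasi-likelihood test and Benjamini-Hochberg adjustment. Alternatives were other scalings, DESeq2 1.42.0, no filter, the 6 libraries alone, a replicate block and each replicate left out.

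The members and the 33 gene lists were chosen with earlier results of these data known. Lists were described by counts and medians, with no set test. Some genes counted in them are not reported here by name. Named genes are the 5 mutated genes, the DNA damage list, the 12 highest and 12 lowest outside chromosome 1 and 6 and 6 on it (called, mean log2 CPM of at least 1, libraries not overlapping), up to 4 members of each list by smallest p, and genes at 0 in 1 genotype with at least 100 counts in the other. Other genes named here were picked from the lists or from the genes apart from all other genotypes after their values were seen. Genes at 0 in a group have a bound from a floor of 3 counts over its libraries, which covers counting error only. Within pairs of libraries of the 2 genotypes variance exceeded counting error 1.47 to 1.71 times, so none is a copy. The labels do not say how separately the replicates were grown, so p-values measure the spread between these samples.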

Additional observations from a re-analysis of the deposited data

How the results depend on the processing

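Under every alternative, the counts of genes higher and lower, overall and at least 2-fold, on and outside chromosome 1, stayed within 1.5 times the values given above. Higher genes outside chromosome 1 numbered 3679 (DESeq2) to 4219 (no filter on low counts) and lower ones 2897 (DESeq2) to 4190 (upper-quartile scaling), beside 4175 and 3674. Upper-quartile scaling moved the share of higher genes among those called from 52.4% to 47.2% and the median of all genes to -0.03. DNA damage genes that were lower numbered 19 with DESeq2, 18 with members on chromosome 1 left out (a choice made after seeing the data) and 19 to 21 without 1 replicate, beside 21, and none was higher. With a replicate block the counts were 4170 and 3678 outside chromosome 1, and no call of a named gene changed. Same-numbered libraries of the 2 genotypes deviated together weakly or not at all (correlations of 0.034, -0.0291 and -0.0245). As much of the spread between libraries is counting error, these values cannot show whether same-numbered samples were grown or handled together. The main test did not pair them. Of 188 named genes 173 kept direction and call under all 12 alternatives, WEE1, FEZ, SDF2, E2FA, NBS1, RAB8D (RABE1b) and NAC085 lost a call under at least 1, and E2FC, SMR4, MYB3R4 and SDI1 gained one. Genes near 0 changed sign: without 1 replicate at a time SMR5 ran from -0.41 to 0.25 (positive without rab8d-2 replicate 3), SMB from -0.28 to 0.03 (sog1-1 rab8d-2 replicate 2), KRP6 from -0.09 to 0.02 (0.01 without rab8d-2 replicate 1, 0.02 without sog1-1 rab8d-2 replicate 3) and WRKY70 from -0.12 to 0.05 (0.00 without sog1-1 rab8d-2 replicate 3, 0.05 without rab8d-2 replicate 3). The cause was not tested. At these depths, genes of low CPM such as SMR5 and NAC085 rest on few reads.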
